A study of Mus musculus with 58 samples.

Results

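Choroid plexus markers are described here in 2 cortical regions, entorhinal (EC) and primary visual (PVC), of aged *APOE* targeted replacement mice. The 10 markers *Ttr*, *Folr1*, *Kl*, *Clic6*, *Kcnj13*, *Otx2*, *Aqp1*, *Sostdc1*, *Slc4a5* and *Kcne2* were taken by symbol from the 31246 genes listed for each region, and all of them were listed in both. The RNA came from male C57Bl/6 mice aged 14 to 15 months in which human *APOE* replaces the mouse gene under the mouse promoter, 10 of genotype *APOE3/3* and 19 of genotype *APOE3/4* per region, or 58 libraries in all. The authors report separate colonies for the mice of their whole study and do not assign the sequenced mice to them. The same animal numbers appear in both regions. For each gene and region the value used was the authors' mean normalized count, a mean over the 29 libraries of that region and over both genotypes. No value of a single mouse was used, so no spread between mice can be placed beside a mean, and no test was possible. A high mean may rest on many libraries or on few. The genotype comparison was not analysed here.

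The choroid plexus is a folded epithelium in the brain ventricles that secretes cerebrospinal fluid. Its cells move sodium, bicarbonate, chloride, potassium and water from blood to ventricle, and they release carrier proteins and growth factor regulators into the fluid. The tissue lies outside the cortex, and its transcripts are scarce in cortical neurons and glia, so they are widely used to recognise ventricular tissue in a brain dissection. *Ttr*, the carrier of thyroxine and of retinol-binding protein, is the best known of them and is among the most abundant transcripts of the epithelium.

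Promoters are shown for *Kcnj13* and *Otx2*, a pair of markers whose means differed between the regions in opposite directions. OTX2 is a homeodomain protein that binds the core TAATCC, so each window was searched for it on both strands, the reverse strand reading GGATTA. Windows of 250 bases upstream of the annotated start were taken from RefSeq (GRCm38.p6), 5′ to 3′ on the gene's strand. They were used for 6 of the 10 markers (*Kl*, *Kcnj13*, *Otx2*, *Aqp1*, *Slc4a5* and *Kcne2*). None was used for *Ttr*, *Folr1*, *Clic6* or *Sostdc1*. A match is printed in capitals. The *Kcnj13* window lies at chr1:87394730-87394979 on the minus strand, and the *Otx2* window, that of the third of 4 annotated starts, at chr14:48665110-48665359 on the minus strand.
Kcnj13: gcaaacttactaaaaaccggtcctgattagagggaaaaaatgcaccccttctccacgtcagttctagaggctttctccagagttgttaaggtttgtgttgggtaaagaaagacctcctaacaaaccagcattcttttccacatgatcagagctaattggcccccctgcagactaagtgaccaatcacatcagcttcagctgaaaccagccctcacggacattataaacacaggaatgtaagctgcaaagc
Otx2: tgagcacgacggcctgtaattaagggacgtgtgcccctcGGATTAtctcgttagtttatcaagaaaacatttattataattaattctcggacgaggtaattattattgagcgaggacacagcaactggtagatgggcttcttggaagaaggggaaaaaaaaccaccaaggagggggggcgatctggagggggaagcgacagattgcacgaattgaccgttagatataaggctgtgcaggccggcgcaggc

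Of the 10 windows of these 6 markers, 1 held the core, the *Otx2* window printed above, with its match beginning 211 bases before the start. Among all 32841 promoter windows of this length, 6.25% held it. The *Kcnj13* window had none, and 45.2% of its bases were G or C against a median of 52.4% over all windows. These are matches of letters and not binding sites.

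As a list the markers lay below the typical gene. In the EC the median mean normalized count of the 10 genes was 33.3, against 118 for all genes above 0. In the PVC these medians were 11.8 and 71.2. *Ttr*, *Kcnj13* and *Kl* lay slightly above the median EC gene, at percentiles 51.8, 52.0 and 53.3 of the genes above 0, and *Ttr* and *Kl* lay above the median PVC gene at 63.8 and 52.3. None of the markers was at 0. Summed over the 10 markers, the mean normalized counts made up 13.3 of every 1000000 normalized counts in EC tissue and 21.7 of every 1000000 in PVC tissue. Genes differ in length, so levels were compared between genes per kilobase of annotated exon and scaled to a sum of 1000000 over all genes with a length.

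The order of levels per kilobase in the EC was *Ttr* at 9.61, *Kcnj13* at 9.48, *Kl* at 2.87, *Sostdc1* at 1.95, *Clic6* at 1.05, *Aqp1* at 0.615, *Kcne2* at 0.362, *Folr1* at 0.325, *Otx2* at 0.139 and *Slc4a5* at 0.0642. *Ttr* and *Kcnj13*, and *Kcne2* and *Folr1*, stood next to each other with ratios of 1.01 and 1.11, too close to be ordered without a spread. The PVC levels per kilobase ran from 42.3 for *Ttr* through 3.37 for *Kcnj13*, 2.76 for *Kl*, 1.02 for *Clic6*, 0.848 for *Sostdc1*, 0.663 for *Aqp1*, 0.391 for *Kcne2*, 0.368 for *Otx2* and 0.297 for *Folr1* down to 0.0909 for *Slc4a5*. There *Ttr* stood 12.6-fold above the next marker. The markers thus kept much of their order, and *Ttr* changed its distance to the rest.

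To compare the regions, the means had to be brought to 1 scale, because the authors normalized each region separately. Over 12097 genes with a mean of at least 100 in each region the median EC to PVC ratio was 1.83. The PVC means were multiplied by this factor, and log2 ratios of EC over scaled PVC are given relative to it. A difference of more than 1.5-fold was counted for genes whose average over the 2 scaled means was at least 10, which 16864 genes and 7 of the 10 markers reached. *Folr1*, *Kcne2* and *Slc4a5* did not reach it, with averages of 9.53, 8.87 and 6.05. *Otx2* reached it through its PVC value alone, so a gene as low as this in the EC could only be compared if it was higher in the PVC.

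The markers did not shift together between the regions. *Ttr* and *Otx2* were more than 1.5-fold higher in the PVC, *Kcnj13* and *Sostdc1* were more than 1.5-fold higher in the EC, and *Kl*, *Clic6* and *Aqp1* lay within 1.5-fold. Of all 16864 genes compared, 14.3% were past 1.5-fold, 9.01% toward the EC and 5.28% toward the PVC. The median log2 ratio of the 7 markers was 0.02, and that of all genes compared was 0.03. The central 90% of all genes lay between log2 ratios of −0.60 and 0.88, and *Ttr*, *Kcnj13* and *Sostdc1* lay outside that range. *Otx2* did too, but it was compared only because of its PVC value, so its direction carries no weight here.

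**Figure D1:**
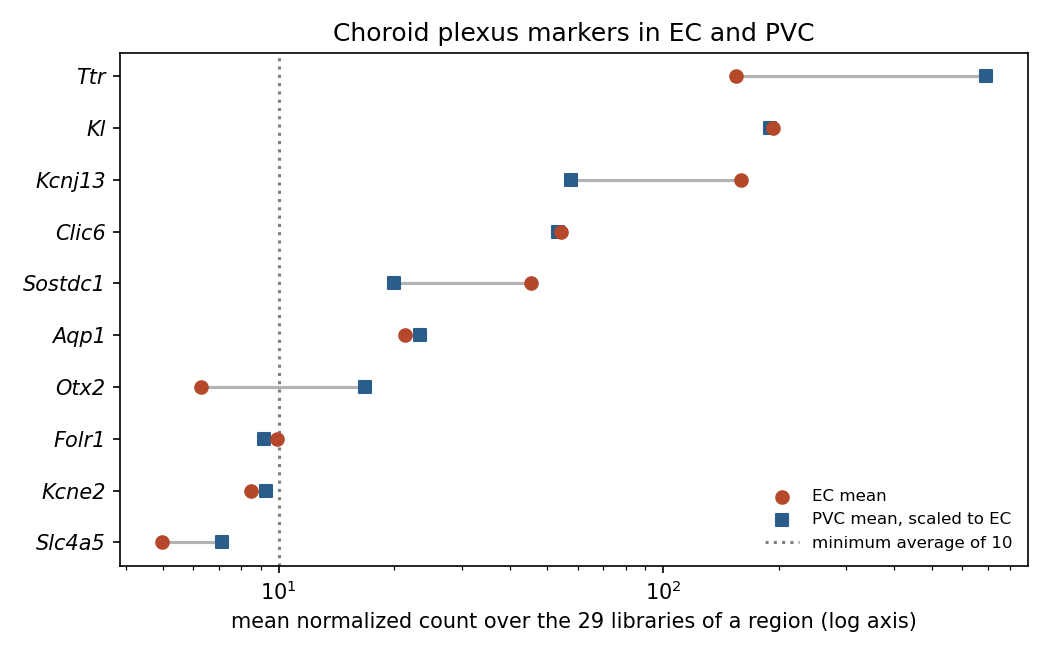
Mean normalized counts of the 10 choroid plexus markers on a log axis, as the authors' means over 29 libraries per region, with circles for the EC and squares for the PVC after multiplication by 1.83. *Ttr* and *Otx2* sit higher in the PVC, *Kcnj13* and *Sostdc1* higher in the EC, and the grey line joins the 2 means of a gene. No error bars are drawn because no values of single mice were used.

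Among the secreted and receptor proteins, *Ttr* had an EC mean normalized count of 155 and a PVC mean of 378. Scaled to the EC, the PVC mean was 693, which is 4.47-fold higher than the EC mean (log2 ratio −2.16). Of all genes compared, 0.302% had a lower ratio. *Ttr* was also the only marker of the 10 apart from *Otx2* whose PVC mean exceeded its EC mean before scaling.

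*Kl* encodes klotho, a co-receptor for fibroblast growth factor 23 whose shed form circulates in the cerebrospinal fluid. Its EC mean normalized count was 194 and its PVC mean 103. After scaling the regions differed by 1.02-fold (log2 ratio 0.03), so the largest EC mean among the markers belonged to a gene that hardly differed. *Sostdc1*, a secreted antagonist of BMP and Wnt ligands, had an EC mean of 45.2 and a PVC mean of 10.9. It was 2.27-fold higher in the EC (log2 ratio 1.18), above 97.0% of all genes compared. *Folr1*, the folate receptor that carries folate across the epithelium, had means of 9.89 and 5.00, below the minimum, with a log2 ratio of 0.11.

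The channels and transporters were divided as well. *Kcnj13*, an inwardly rectifying potassium channel of the apical membrane, had an EC mean normalized count of 159 and a PVC mean of 31.3. After scaling it was 2.77-fold higher in the EC (log2 ratio 1.47), above 98.3% of all genes compared and the largest difference toward the EC among the markers. *Clic6*, a chloride intracellular channel protein, had means of 54.2 and 29.1 and a log2 ratio of 0.02. *Aqp1*, the apical water channel, had means of 21.4 and 12.8 and a log2 ratio of −0.13. These neighbours in function did not follow *Kcnj13*.

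*Kcne2*, a beta subunit of voltage-gated potassium channels, had an EC mean of 8.46, a PVC mean of 5.06 and a log2 ratio of −0.13. *Slc4a5*, a sodium bicarbonate cotransporter, was the lowest marker of both regions with means of 4.96 and 3.89 and a log2 ratio of −0.52. Both fell below the minimum, so no difference was counted for either.

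*Otx2*, the transcription factor required for the choroid plexus to form, had an EC mean normalized count of 6.26 and a PVC mean of 9.15. After scaling it was 2.68-fold higher in the PVC (log2 ratio −1.42), and 1.11% of all genes compared had a lower ratio. Over 29 libraries these means correspond to summed normalized counts of 182 and 265, so few reads stand behind this difference.

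Ratios within a region do not depend on the scaling between regions. Per kilobase, *Ttr* was 1.01 times *Kcnj13*, 3.35 times *Kl*, 4.92 times *Sostdc1* and 9.19 times *Clic6* in the EC. In the PVC these ratios were 12.6, 15.3, 49.9 and 41.6. The order depends on the division by length, for without it *Ttr* was 0.7998 times *Kl* in EC tissue and 3.66 times *Kl* in PVC tissue, and *Ttr* ranked 3 among the EC markers. Of the summed mean normalized counts of the 10 markers, *Ttr* made up 23.5% in EC tissue and 64.2% in PVC tissue. Without *Ttr*, the sum over the other markers was 503 for the EC and, after scaling, 386 for the PVC, or 1.30-fold higher in the EC. *Kcnj13*, whose mean is uncertain because its exons overlap those of *Gigyf2*, made up 159 and 57.5 of these sums. With *Ttr*, the sum over all 10 markers was 1.64-fold higher in the PVC. On these means, the marker transcripts were mixed in different proportions in the 2 regions. In these bulk samples, more cells of a type and more RNA per cell cannot be told apart.

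**Figure D2:**
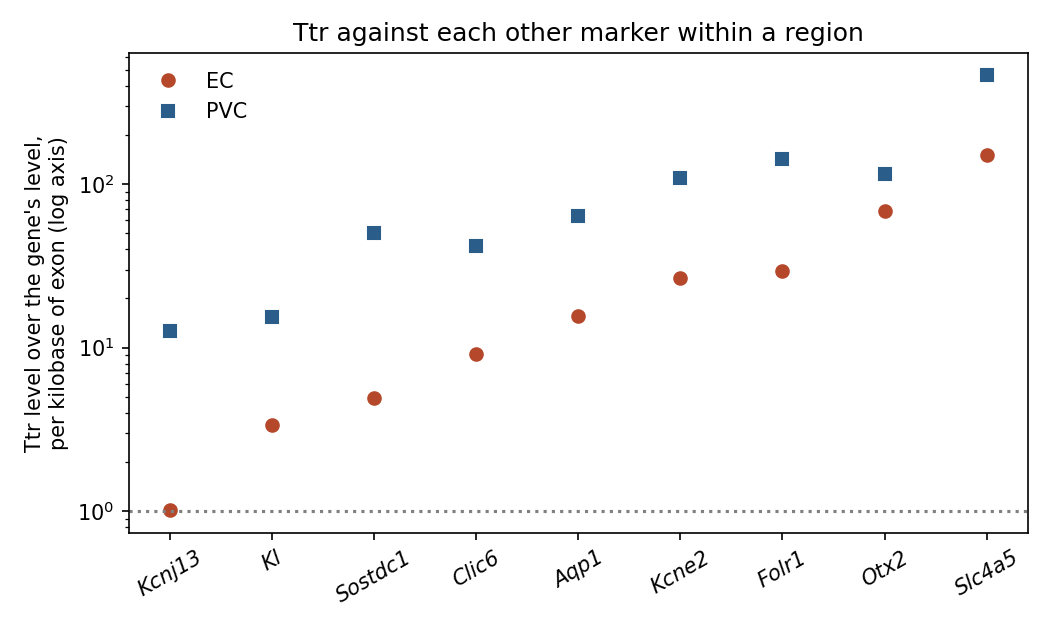
Level of *Ttr* divided by the level of each other marker within the EC (circles) and the PVC (squares), both per kilobase of annotated exon, on a log axis with a dotted line at a ratio of 1. Every ratio is higher in the PVC, and in the EC the ratio to *Kcnj13* is 1.01.

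Each marker has 1 gene model in the NCBIM37 annotation, the Ensembl form of the mm9 build that the authors used. *Kcnj13* (chromosome 1, 89282938 to 89291304, minus strand) lies wholly inside *Gigyf2*, a gene on the opposite strand, and 49.1% of its 1270 exon bases are also annotated as exon of *Gigyf2*. The library kit does not mark strand, so reads of the 2 genes cannot be told apart in that part, and the mean of *Kcnj13* is uncertain. *Gigyf2* had an EC mean normalized count of 4500 and a PVC mean of 2343, and its log2 ratio was 0.07. Its part in the *Kcnj13* difference was not tested.

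*Ttr* (chromosome 18, 20823751 to 20832825, plus strand) shares 11 of its 1219 exon bases with the antisense transcript *Gm16090*, which had means of 2.98 and 0.966. *Dsg2*, a desmosomal cadherin and the closest coding gene to the left of *Ttr*, had a log2 ratio of 1.27, the direction opposite to that of *Ttr*. *Sostdc1* (chromosome 12, 37040756 to 37045039), *Otx2* (chromosome 14, 49277354 to 49287319), *Kl* (chromosome 5, 151755182 to 151796384), *Slc4a5* (chromosome 6, 83169822 to 83254939) and *Aqp1* (chromosome 6, 55286426 to 55298549) share no exon base with another annotated gene.

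*Folr1* (chromosome 7, 109006845 to 109019302) lies 13013 bases from its paralog *Folr2*, a folate receptor of macrophages, which had means of 38.3 and 12.1 and a log2 ratio of 0.79. How reads common to these paralogs were handled in the counting is not known here, which leaves the mean of *Folr1* uncertain. *Kcne2* (chromosome 16, 92292634 to 92298374) and *Clic6* (chromosome 16, 92485981 to 92541488) lie 187606 bases apart on the same strand with 4 coding genes between them. Of those 4, *Rcan1* and *Fam165b* had log2 ratios of −0.14 and −0.12, and the others had means under 1 in each region. No gene of this stretch with an average of at least 10 differed by more than 1.5-fold.

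A longer list of genes known from the choroid plexus, 28 in number and separate from the 10 markers, was read in the same way. All 28 were listed and 20 reached the minimum. Of these 20, 12 were more than 1.5-fold higher in the EC, 1 was higher in the PVC and 7 lay within 1.5-fold. Over all genes compared, 9.01% were past 1.5-fold toward the EC and 5.28% toward the PVC. One of the 12, *Cdh3*, reached the minimum through its EC value alone, with an EC mean of 19.5 and a scaled PVC mean of 8.62. The median log2 ratio of the 20 genes was 0.69, against 0.03 over all genes compared. The highest was *Cldn1*, a tight junction protein, with means of 503 and 69.3 and a log2 ratio of 1.98, and the middle of the list lay at *Prlr*, the prolactin receptor, with 0.71, and *Abca4* with 0.67.

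The 1 gene of that list higher in the PVC was *Enpp2*, the lysophosphatidic acid enzyme autotaxin, which is also made by oligodendrocytes, with means of 5356 and 5577 and a log2 ratio of −0.93. Several genes of the longer list that were higher in the EC are also known from the meninges. Among them *Igf2*, a growth factor, had a log2 ratio of 0.92, and *Slc13a4*, a sulfate transporter, had one of 1.51. The part of the meninges in the differences of the longer list was not tested.

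Markers of the cells that border the choroid plexus or the cortex were set beside these values. All 9 meningeal fibroblast genes were more than 1.5-fold higher in the EC, against 9.01% of all genes compared, with a median log2 ratio of 1.28. They ran from 0.67 for *Lum* to 3.09 for *Dcn*, both proteoglycans of connective tissue. Their summed mean normalized counts were 11815 for the EC and, after scaling, 3711 for the PVC. None of them was at 0 in either region. These genes leaned the same way as *Kcnj13* and *Sostdc1*, and their part in those differences was not tested.

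Ependymal cells line the ventricles with beating cilia. Of their 8 genes 7 reached the minimum, with a median log2 ratio of 0.17. Of these 7, 3 were more than 1.5-fold higher in the EC, 1 was higher in the PVC and 3 lay within 1.5-fold. The shares over all genes compared were 9.01% toward the EC and 5.28% toward the PVC. *Tekt1*, a protein of ciliary microtubules, was highest at 1.40, and *Dynlrb2*, a dynein light chain, was lowest at −1.08. *Foxj1*, the master regulator of motile cilia, had means of 106 and 77.9 and a log2 ratio of −0.42. The summed mean normalized counts of the 8 genes were 517 for the EC and, after scaling, 418 for the PVC, and none was at 0. *Dynlrb2*, like *Otx2*, reached the minimum through its PVC value alone, with an EC mean of 6.76 and a scaled PVC mean of 14.3. With centring on the cortical neuron genes the PVC means were multiplied by 1.53, and *Dynlrb2* fell below the minimum. For that reason 0 ependymal genes were then counted as higher in the PVC. Their part in the *Ttr* and *Otx2* differences was not tested.

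The 8 endothelial genes lay within 1.5-fold, with log2 ratios from −0.13 for *Ly6c1* to 0.31 for *Cdh5* and a median of 0.04. Among the 3 genes known from layer 4 of sensory cortex, *Rspo1* had a log2 ratio of −4.60, *Rorb* one of −1.20 and *Scnn1a*, within 1.5-fold, one of −0.34. *Reln*, *Wfs1* and *Calb1*, known from layer 2 of the EC, had log2 ratios of 1.76, 1.05 and 0.69. Of these 6 genes 5 were past 1.5-fold in the direction of the region they are known from. Over all genes compared, 14.3% were past 1.5-fold in either direction.

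**Figure D3:**
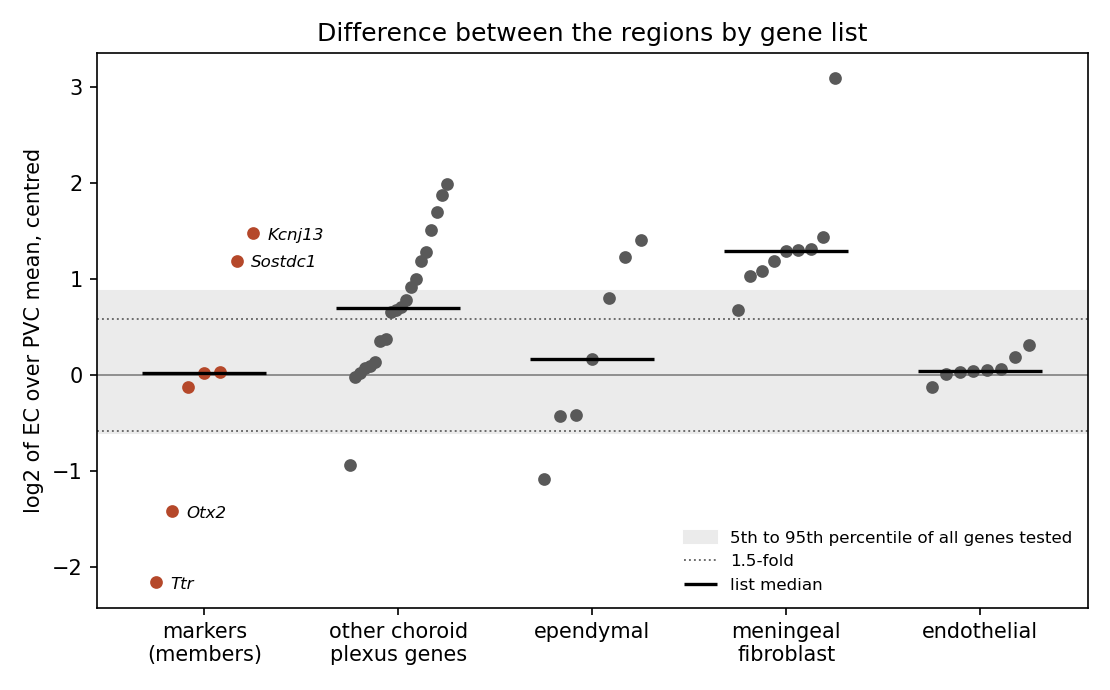
Log2 ratio of EC over PVC mean normalized count, relative to the median gene, for each gene with an average of at least 10 in 5 lists, with a bar at each list median, dotted lines at 1.5-fold and grey between the 5th and 95th percentile of all genes compared. The 7 markers spread from −2.16 for *Ttr* to 1.47 for *Kcnj13*, while all 9 meningeal genes lie above 1.5-fold and all 8 endothelial genes within it. *Folr1*, *Kcne2* and *Slc4a5* are not drawn.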

How the data were processed

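The data come from 58 single-end libraries of Poly(A)+ RNA. According to their methods and processing notes, the authors aligned the reads to mm9 with TopHat2 2.0.6 and Bowtie2 2.0.2.0, counted them per gene with HTSeq on a modified NCBIM37 annotation, and used DESeq2 1.10.1 within each region. The authors deposited 1 table per region. The signal used here, the mean normalized count, was made by the authors as the mean over a region's libraries of counts divided by size factors. The remaining columns hold the authors' own comparison of *APOE3/4* and *APOE3/3* (fold change, standard error, statistic, *p*-value and adjusted *p*-value) and were not used. Depth per library was not analysed here. Only sums of the means are known, 49385500 for the EC and 27058400 for the PVC.

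Scaling and filters are given with the results. Exon lengths were taken from the GENCODE vM1 annotation of NCBIM37, whose version differs from that of the authors, for the 80.6% of genes whose symbol has 1 model. Calculations used Python 3.11.15, numpy 2.4.6, pandas 2.3.3 and matplotlib 3.10.9. The ratio procedure was tested on simulated data in which only genes with higher means than *Otx2* were changed. That simulation therefore says nothing about differences in genes as low as *Otx2*. The markers and lists were chosen with earlier results of these data known. Genes named are all markers, the highest, lowest and middle gene of each list, genes overlapping or next to a marker and genes needed for a range. *Igf2*, *Slc13a4*, *Foxj1*, *Cdh3*, *C1ql2*, *Dsp*, *Lct* and *Trpc6* were named after their values were seen.

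Alternatives were other scalings between regions, a fold of 2, minimum averages of 0 and 100, a pseudocount of 1, the longest transcript as length, no division by length, and percentiles among genes with a mean of at least 10.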

Additional observations from a re-analysis of the deposited data

How the results depend on the processing

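No paired analysis was possible because the tables hold 1 mean per region, and for the same reason no library could be left out. Under the 5 other scalings and the pseudocount, the 42 recomputed log2 ratios of the 7 compared markers kept their side of 1.5-fold. The other settings do not enter these ratios. Over the alternatives they ran from −2.18 to −1.90 for *Ttr*, −1.44 to −1.16 for *Otx2*, 1.45 to 1.73 for *Kcnj13* and 1.14 to 1.45 for *Sostdc1*. That of *Aqp1*, within 1.5-fold throughout, ran from −0.15 to 0.13. With a minimum average of 100, 1 marker was higher in the EC and 1 in the PVC, since fewer genes are compared, the ependymal counts were 1 and 0, and all genes gave 750 and 576. Centring on the cortical neuron genes moved the median of all genes by 0.26, gave 2972 genes higher in the EC and 502 in the PVC (85.5% of the differences toward the EC against 63.0%), and left 0 ependymal and 1 cortical neuron gene higher in the PVC. The ependymal count fell because *Dynlrb2* no longer reached the minimum average. A fold of 2 gave 690 and 383 genes, 6 and 0 of the longer choroid plexus list, and 1 cortical neuron gene higher in the PVC. Without a minimum, 5315 and 3054 genes differed, and 4 of the longer choroid plexus list and 2 ependymal genes were higher in the PVC. Without division by length, the ratio of *Ttr* to *Kl* was 0.7998 in EC tissue and 3.66 in PVC tissue, and *Kl* ranked 1 in the EC with *Ttr* at 3. In all, 12 of 20 ranks moved without division by length, and 5 of 20, among *Folr1*, *Kcne2* and *Otx2*, with the longest transcript as length.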

Other observations

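The hippocampus borders the EC and holds a choroid plexus along its ventricular face, so its genes were read as well. Of 8 hippocampal genes 7 reached the minimum average, with a median log2 ratio of 0.70. Of these 7, 4 were more than 1.5-fold higher in the EC, 0 were higher in the PVC and 3 lay within 1.5-fold. The shares over all genes compared were 9.01% toward the EC and 5.28% toward the PVC. The highest was *Fibcd1*, known from CA1 neurons, with an EC mean normalized count of 2684, a PVC mean of 330.2 and a log2 ratio of 2.15. *C1ql2*, *Dsp*, *Rgs14*, *Lct* and *Trpc6* had log2 ratios of 1.81, 1.01, 0.70, 0.11 and 0.04. The lowest was *Prox1*, the transcription factor of dentate granule cells, at −0.23. *Ttr* had a log2 ratio of −2.16. The part of hippocampal tissue in the marker differences was not tested.

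Among 8 cortical neuron genes, 2 were more than 1.5-fold higher in the PVC and 0 higher in the EC, with a median log2 ratio of −0.26. The shares over all genes compared were 5.28% toward the PVC and 9.01% toward the EC. *Slc17a7*, the vesicular glutamate transporter, had one of 0.16.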
